A study of Rattus norvegicus with 9 samples.

Results

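The comparison set the 3 arrays of posterior cricoarytenoid muscle from rats aged 18 months against the 6 arrays from rats aged 6 and 30 months, over every probe set that was not an array control. It asked which genes had a level in mid-life that lay outside the levels at both younger and older age. A probe set was counted as a peak when all 3 signals at 18 months exceeded all 6 others, and as a dip when all 3 lay below all 6 others. Of 8740 such probe sets 148 stood apart in this way, 1.69%, with 65 peaks (0.744%) and 83 dips (0.95%). After quantile normalization the balance turned, to 93 peaks and 67 dips.

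The study hybridized RNA of this muscle to 9 Affymetrix Rat Genome U34 arrays, 3 per age at 6, 18 and 30 months. Muscles of 4 animals were combined for each array, so a value is an average over a pool and says nothing of single rats. The labels give no sex or strain, and no group is described as treated. The pools are described as independent, and p-values measure the spread between pools only. The number of arrays limits the precision of every value below.

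The posterior cricoarytenoid is the muscle that opens the vocal folds with each breath, so it contracts rhythmically throughout life. It is a mixed muscle in which fast fibres predominate, and ageing limb muscle is known to lose fibres, motor innervation and fast myosin while connective tissue accumulates. An age series with only a young and an old group cannot separate a steady drift from a passing change, which is what an intermediate age adds.

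The arrays resembled one another closely. Across probe sets, log2 signals of arrays of one age correlated at 0.978 to 0.986 and those of different ages at 0.975 to 0.989, a correlation over genes and not over replicates. Most fast fibre markers were at high signals on all arrays. Myh4, the fast IIB myosin heavy chain, lay between 16064.5 and 24294.9 and Pvalb, the calcium buffer of fast fibres, between 20036.1 and 26972. Myh1, also a fast myosin heavy chain, was far weaker, between 227.3 and 360.2. Slow fibre markers were present too, with Myl2 between 6481.3 and 11671.9 in the probe set that peaked. Of the cartilage markers none of the 4 on the array reached the level required for testing, and Col2a1, the collagen of cartilage, lay between 4.1 and 28.1 over its probe sets. Of the thyroid markers, which mark the gland beside the larynx, 4 genes with 10 probe sets were on the array. None of the 10 stood apart at 18 months, against 1.69% of all 8740 probe sets. So few probe sets say nothing of thyroid tissue in this comparison. Tg, the thyroid hormone precursor, was high on the third 18-month and the third 30-month array, at 628.2 and 555.2 in its strongest probe set against 30.2 to 108.6 on the other 7 arrays. The summed thyroid markers ran from 787.6 to 915.3 at 6 months, 564.6 to 1920.4 at 18 months and 617.5 to 1688.8 at 30 months. Without both arrays, a step chosen after seeing the data, limma made 0 calls in the mid-life contrast, with 187 at an unadjusted p under 0.05. The difference was then -1.20 for Adar and -1.22 for Anp32a and Cyba. All 34 named probe sets kept their direction, which the rule that chose them requires, so this is no check on them.

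Fewer probe sets stood apart at 18 months than at either end of the age range, although those above the rest at 18 months were about as many as those above at 30 months. When the 6-month arrays were set against the other 6, 521 probe sets stood apart (5.96%), 353 above (4.04%) and 168 below (1.92%). With the 30-month arrays the number was 272 (3.11%), of which 63 lay above (0.721%) and 209 below (2.39%). These are counts over the same 9 arrays and are not independent of one another. The plot of these counts gives both directions for each age. In the 5244 probe sets with enough signal to be tested, the 18-month mean lay between the means of the other ages in 2349 (44.8%), above both in 1354 (25.8%) and below both in 1541 (29.4%).

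**Figure D1:**
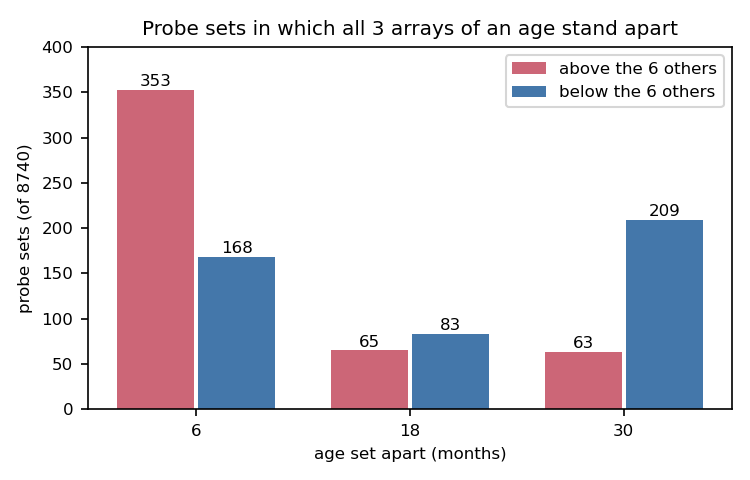
Number of the 8740 probe sets (vertical axis) in which all 3 arrays of one age (horizontal axis, months) lay above or below all 6 others. The 65 peaks and 83 dips at 18 months compare with 353 and 168 at 6 months and with 63 and 209 at 30 months.

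No probe set passed the test of 18 months against the mean of 6 and 30 months. The test was limma's moderated linear model on log2(signal + 32), two-sided, with Benjamini-Hochberg adjustment over the 5244 tested probe sets, and 0 of them (0%) had an adjusted p under 0.05. The smallest adjusted p in limma was 0.141, reached by Adar and by Rab3b. At an unadjusted p under 0.05 there were 209 probe sets (3.99%), 62 higher (1.18%) and 147 lower (2.8%) at 18 months. Leaving out 1 array changed the count of 0 adjusted calls in 3 of the 9 cases. It rose to 2 without the first 18-month array (Anp32a and a probe set with several symbols), to 1 without the second 18-month array (Trpc1, a cation channel) and to 1 without the third 30-month array (Adar).

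The pairwise tests gave few calls, and none in both. Against 6 months, 4 probe sets passed (0.0763%), of which 2 were of Rab3b, 1 of Col1a2, a chain of type I collagen, and 1 had no symbol, and against 30 months 1 did (0.0191%). These comparisons share the 18-month arrays. In the same fit 17 probe sets differed between 30 and 6 months (0.324%), and in 13 of the 17 the 18-month mean lay between the other means. All differences at 18 months described below are therefore values with their spread, and none is a call of a mid-life change unless stated.

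Of the 148 probe sets that stood apart, 81 were among the tested ones (1.54% of 5244), 32 of them peaks (0.61%) and 49 dips (0.934%). The other 67 lay under the signal filter and had a median mean signal of 20.9. The separation of the tested ones was narrow. The gap, the log2(signal + 32) distance between the nearest 18-month array and the nearest other array, had a median of 0.03 and was under 0.1 in 68 of 81. The median size of the mid-life difference, 18 months minus the mean of 6 and 30 months, was 0.34 on the log2 scale, against 0.09 over all tested probe sets. That contrast follows from how the members were chosen and is given as a description. Just inside the rule lay Lipe, with a gap of 0.0017, Pde4d with 0.0018 and Klhdc3 with 0.0032. Dab2, Dgka and RT1-Bb just missed it, by 0.0002, 0.0012 and 0.0015.

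The nearest other array was a 30-month array in 52 of the 81 and a 6-month array in 29. The difference between 30 and 6 months was smaller than the mid-life difference in 75 of the 81, with a median size of 0.10. Over all tested probe sets it was smaller in 1715 of 5244, with a median size of 0.16. The high share among the 81 follows from how they were chosen and is given as a description. By limma 2 of the 81, in Rab3b and Cd74, passed an adjusted p of 0.05 for 30 against 6 months. The plot of the difference against signal shows peaks and dips at all signal strengths, and the median mid-life difference ran from -0.03 to 0.03 between the weakest and the strongest of 5 equal groups ranked by signal.

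**Figure D2:**
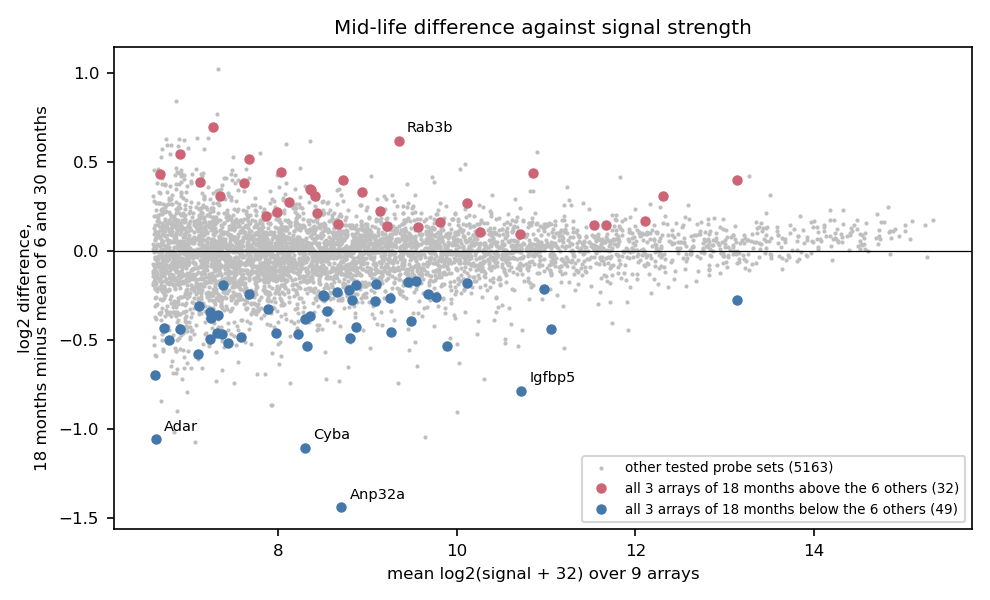
Mid-life log2 difference (vertical axis) against mean log2(signal + 32) over the 9 arrays (horizontal axis) for the 5244 tested probe sets. The 32 peaks are red, the 49 dips blue and all others grey; the dips of Anp32a, Cyba and Adar lie farthest from 0 among the coloured points.

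Only 2 of the 81 had a gap of 0.2 or more, and both were dips, of Adar and Anp32a. The widest gap was that of Adar, the adenosine deaminase that converts adenosine to inosine in double-stranded RNA. Its signals were 86.8, 86.7 and 96.5 in the 6-month pools, 29.5, 25.3 and 31.8 in the 18-month pools and 106.7, 133.9 and 66.2 in the 30-month pools. All 3 mid-life pools lay far below the others, and the lowest 30-month pool was still above all of them. The means were 90.0 ± 5.63 for 6 months, 28.9 ± 3.30 for 18 months and 102 ± 34.1 for 30 months (SD, n = 3 pools). On the log2(signal + 32) scale, which understates changes of weak probe sets, the mid-life difference was -1.06 (SE 0.15, limma adjusted p = 0.141). The 18-month signals lay close to the lower quartile of all signals on those arrays, which was 28.9, 23 and 28.8, and under the level required for testing, which Adar passed through its 6- and 30-month signals. No fold is given for a level so weak. Without the third 30-month array, the lowest of its age, the difference was -1.16 with a limma adjusted p of 0.0135. That fit left out the pool nearest to the dip, and Adar was not called under any other alternative. Without the second 6-month array the smallest limma adjusted p of any probe set was 0.549, and without the second 30-month array 0.487.

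Anp32a encodes an acidic nuclear phosphoprotein that inhibits protein phosphatase 2A and binds histones. Its probe set read 465.1, 612 and 556.4 in the 6-month pools, 346, 136 and 126.2 in the 18-month pools and 525.6, 623.5 and 545.5 in the 30-month pools. The first mid-life pool was below all 6 others, and the other mid-life pools were far lower still. The means were 544 ± 74.2 for 6 months, 203 ± 124 for 18 months and 565 ± 51.7 for 30 months, and the mid-life difference of -1.44 (SE 0.25, limma adjusted p = 0.279) was the largest of all tested probe sets. Without the first 18-month array it was -1.84, with a limma adjusted p of 0.00167. That fit left out the mid-life pool nearest to the other ages, and this probe set was not called under any other alternative. The other tested Anp32a probe set, made from a different accession, read 88.5, 149.8 and 115.2 in the 6-month pools, 164.9, 143.5 and 139.8 in the 18-month pools and 122.6, 163.7 and 156 in the 30-month pools. It did not dip, and its mid-life difference was 0.16 (SE 0.14).

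Cyba, the membrane subunit of the NADPH oxidase, was measured by 1 probe set, with 419.4, 416.8 and 350.8 in the 6-month pools, 80.5, 263.4 and 174.7 in the 18-month pools and 382.7, 403.3 and 298.5 in the 30-month pools. The mid-life pools differed among themselves more than those of either other age, yet each lay below all others. With means of 396 ± 38.9 for 6 months, 173 ± 91.5 for 18 months and 362 ± 55.5 for 30 months, the difference was -1.10 (SE 0.25, limma adjusted p = 0.849).

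**Figure D3:**
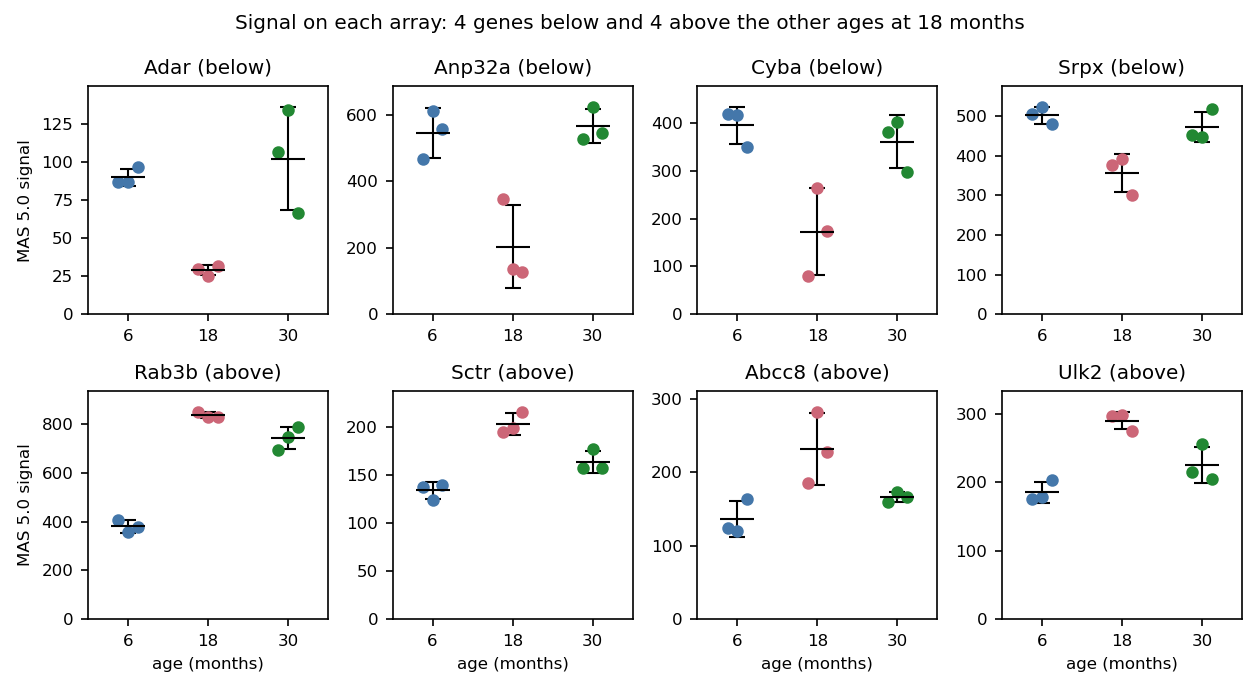
Deposited MAS 5.0 signal (vertical axis, linear from 0) on each of the 9 arrays by age in months for 4 dips (Adar, Anp32a, Cyba, Srpx) and 4 peaks (Rab3b, Sctr, Abcc8, Ulk2). Points are arrays, black lines the mean and the SD of 3 arrays; the 18-month points lie outside the other 6 in every panel, with the widest gaps on the log2(signal + 32) scale for Adar and Anp32a.

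Promoter sequence was looked up for the 12 peaks and 12 dips with the widest gaps among tested probe sets of 1 symbol, and 10 of each had an entry in the RefSeq table of assembly GRCr8. The sequences of the 2 dips and the peak with the largest differences among those with an entry are shown, as the 250 bases before each gene's start, 5′ to 3′ on the gene's strand. Capitals mark the GC box GGGCGG and the CCAAT box CCAAT, on either strand. The dip genes are Anp32a at chr8:71724328-71724577 on the plus strand and Cyba at chr19:67404215-67404464 on the minus strand. The peak gene is Rab3b at chr5:128858841-128859090 on the plus strand.
Anp32a: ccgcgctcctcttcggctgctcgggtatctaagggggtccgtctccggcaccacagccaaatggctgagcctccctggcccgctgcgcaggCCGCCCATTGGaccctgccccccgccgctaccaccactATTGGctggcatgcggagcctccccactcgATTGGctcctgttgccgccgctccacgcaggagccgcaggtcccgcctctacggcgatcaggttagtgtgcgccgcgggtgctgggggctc
Cyba: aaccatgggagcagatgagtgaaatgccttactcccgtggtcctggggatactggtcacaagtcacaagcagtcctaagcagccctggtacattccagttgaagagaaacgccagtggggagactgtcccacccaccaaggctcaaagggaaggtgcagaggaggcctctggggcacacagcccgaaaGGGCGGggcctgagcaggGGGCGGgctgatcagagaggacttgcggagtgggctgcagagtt
Rab3b: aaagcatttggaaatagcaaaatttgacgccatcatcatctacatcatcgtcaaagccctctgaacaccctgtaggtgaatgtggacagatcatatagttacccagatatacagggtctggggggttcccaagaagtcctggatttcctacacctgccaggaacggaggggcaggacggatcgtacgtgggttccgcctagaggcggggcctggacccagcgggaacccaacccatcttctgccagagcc
The Anp32a window held 3 CCAAT boxes and 1 GC box, which directly adjoins the first of them. The Cyba window held 2 GC boxes close to the start, and the Rab3b window, printed without capitals, held neither motif, nor the TATA box TATAAA or the E-box CACGTG. GC boxes were found in 7 of 10 peak promoters and 6 of 10 dip promoters, against 58.7% of 2613 promoters of tested genes and 30.5% of 33469 promoters of this length. CCAAT boxes were in 4 of 10 and 2 of 10, against 36.1% and 34%. TATA boxes were in 0 and 1, against 9.07% and 12.9%, and E-boxes in 0 and 0, against 8.53% and 5.59%. A match is a run of letters and not a bound site.

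Srpx, a sushi-repeat protein of the cell surface and matrix, read 505.3, 522.8 and 480.6 in the 6-month pools, 377.9, 391.4 and 301.6 in the 18-month pools and 453.1, 448.5 and 518 in the 30-month pools. Its 3 mid-life values were below the rest without overlap, with a difference of -0.42 (SE 0.11, limma adjusted p = 0.849). Igfbp5, a secreted binding protein of insulin-like growth factors, read 3032.5, 1692.9 and 1534.1 in the 6-month pools, 1297.6, 985.9 and 1177.3 in the 18-month pools and 1528.3, 1470 and 3540 in the 30-month pools. Here 1 pool at 6 months and 1 at 30 months were far above the rest of their age, and the SE of the difference of -0.78 was 0.30. A separate Igfbp5 probe set read 1316.8, 2149.4 and 1197.6 in the 6-month pools, 409.9, 1566.6 and 1038.4 in the 18-month pools and 443.6, 2135 and 3023 in the 30-month pools, a difference of -0.72 (SE 0.57) in which the mid-life pools overlapped both other ages.

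F13a1, the A subunit of clotting factor XIII, had signals of 219.2, 118 and 133 in the 6-month pools, 56.8, 82.6 and 84.5 in the 18-month pools and 103, 96.8 and 112 in the 30-month pools. The 30-month pools lay closer to the mid-life pools than the 6-month pools did, with differences of -0.36 from 30 months and -0.80 from 6 months. Il4r, the interleukin-4 receptor, read 348.3, 382.9 and 352.5 in the 6-month pools, 297.3, 291.5 and 287.3 in the 18-month pools and 324.2, 336.3 and 371 in the 30-month pools. The adhesion molecule Icam1 read 197.8, 213.2 and 171.7 in the 6-month pools, 155.4, 147.1 and 151.5 in the 18-month pools and 190.4, 170.4 and 168.7 in the 30-month pools. Both were lower at 18 months by similar amounts, -0.25 (SE 0.09) and -0.24 (SE 0.10), with little spread among the mid-life pools.

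Among the remaining named dips, Pygb, the brain form of glycogen phosphorylase, read 166, 145.2 and 111.2 in the 6-month pools, 96.9, 94.8 and 96.5 in the 18-month pools and 130.9, 144.4 and 113.8 in the 30-month pools, a difference of -0.38 (SE 0.12). Its companion from the same accession gave -0.03 (SE 0.11) and overlapped the other ages. Phf7, a PHD-finger protein, had a difference of -0.46, with 114.4, 117.3 and 78.2 at 18 months against a lowest other value of 130.3. Krtcap2, a subunit of the oligosaccharyltransferase complex, differed by -0.28, and Igbp1, which binds the catalytic subunit of protein phosphatase 2A, by -0.38. In Igbp1 the first 30-month pool, at 476.7, stood above all others.

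Peaks were smaller than the leading dips. The one with the smallest p was Rab3b, a small GTPase of vesicle release, whose signals were 408.2, 356.6 and 378.5 in the 6-month pools, 852.7, 831.3 and 830.4 in the 18-month pools and 695.4, 746.4 and 787.6 in the 30-month pools. All mid-life pools exceeded all 30-month pools, and the 6-month pools were far below both. The mid-life difference was 0.62 (SE 0.09, limma adjusted p = 0.141). The difference was 1.08 from 6 months (limma adjusted p = 0.00881) and 0.17 from 30 months (limma adjusted p = 0.999), and 30 months exceeded 6 months by 0.91 (limma adjusted p = 0.0131). The companion probe set from the same accession read 1246.2, 1023.8 and 1114.2 in the 6-month pools, 2379.1, 2526.8 and 2386.2 in the 18-month pools and 2147.6, 2425.6 and 2612.4 in the 30-month pools. There the 30-month pools reached above the mid-life pools, and the difference from 30 months was 0.02.

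The widest gap among named peaks was that of Sctr, the secretin receptor, which read 138.1, 124 and 140.2 in the 6-month pools, 195.3, 198.6 and 216.2 in the 18-month pools and 157.2, 177.2 and 157.1 in the 30-month pools. The ages did not overlap, in the order 6, 30 and 18 months, and the difference was 0.38 (SE 0.09, limma adjusted p = 0.849). A Sctr probe set from another accession read 43.5, 106.9 and 106.2 in the 6-month pools, 119.5, 164.8 and 129.1 in the 18-month pools and 146.8, 187.1 and 150.6 in the 30-month pools and was highest at 30 months. Ulk2, a kinase that starts autophagy, was measured by 1 probe set at 175.7, 177.9 and 203.3 in the 6-month pools, 297.7, 298.4 and 275.4 in the 18-month pools and 214.8, 256.2 and 205.4 in the 30-month pools. Its mid-life pools were tightly grouped, with a difference of 0.45 (SE 0.10, limma adjusted p = 0.849). Abcc8, the sulfonylurea receptor of ATP-sensitive potassium channels, read 123.7, 119.9 and 164.1 in the 6-month pools, 185.5, 282.8 and 227.3 in the 18-month pools and 159.6, 172.6 and 166.3 in the 30-month pools. Its mid-life pools were scattered but all higher, by 0.52 (SE 0.14), while a probe set of another accession gave 0.01 (SE 0.22).

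Dmac2, a mitochondrial assembly factor, read 308.6, 433.9 and 369.5 in the 6-month pools, 501.3, 475 and 455.6 in the 18-month pools and 343.8, 314.2 and 365.6 in the 30-month pools, higher by 0.40. Polr1b, a core subunit of RNA polymerase I, was higher by 0.35 (SE 0.13) and S1pr2, a sphingosine-1-phosphate receptor, by 0.31 (SE 0.12). The prefoldin subunit Pfdn2 was higher by 0.23, Papss1, which makes the sulfate donor PAPS, by 0.14, and the RNA-binding protein Hnrnpa3 by 0.15. The other tested Hnrnpa3 probe set, from a different accession, gave -0.004 and did not peak. Npr1, the receptor of atrial natriuretic peptide, was higher by 0.20 and its 2 other probe sets by 0.12 and 0.15. Stk39, a kinase that acts on ion cotransporters, read 108.9, 145.4 and 104 in the 6-month pools, 170.1, 151.4 and 149.9 in the 18-month pools and 135, 108.5 and 123.6 in the 30-month pools, a difference of 0.31. Its 2 other probe sets gave -0.09 and 0.01, and the first of them was called higher at 30 than at 6 months, by 1.02 (limma adjusted p = 0.0206), with 18 months between.

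A ratio of means of at least 1.5 against each other age was met by 7 of the 81, 1 peak and 6 dips. Over all 5244 tested probe sets 48 met it. The 81 were chosen for extreme 18-month signals, so their higher share follows largely from that rule. Besides Adar, Anp32a, Cyba and Igfbp5, the dips among the 7 were Marcks, a substrate of protein kinase C, and Camk2n1, an inhibitor of calcium/calmodulin-dependent kinase II. Marcks had a difference of -0.48, and its other tested probe sets gave -0.02 and -0.36. These last genes and the peak, Faim2, an inhibitor of Fas-mediated cell death, were picked after their values were seen. Faim2 read 117.6, 139 and 85.6 in the 6-month pools, 206.7, 140.3 and 203.8 in the 18-month pools and 49.3, 133 and 95.2 in the 30-month pools. The lowest mid-life value was just above the highest young one, and the 3 were scattered, with a difference of 0.70 (SE 0.22). Camk2n1 read 88.4, 96.3 and 75.4 in the 6-month pools, 49.9, 74.5 and 44.1 in the 18-month pools and 95, 93.6 and 98.9 in the 30-month pools, and 1 mid-life pool lay just under the lowest of the others. Its 18-month mean of 56.2 lay under the level required for testing, which it passed through its 6- and 30-month signals.

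Other probe sets of the same gene pointed the same way in most pairs, but none stood apart. The 81 included 65 with a single gene symbol, for 65 genes, of which 32 had at least 1 other tested probe set and 33 had none. In 45 such pairs the other probe set had the same sign of the mid-life difference in 34, 75.6% (95% exact binomial interval 60.5 to 87.1%, counting error only). The pairs share genes and arrays and are not independent, so the interval understates the uncertainty. A shared sign is also less than a shared peak or dip. Over all tested genes with several probe sets 57% of 3058 pairs shared a sign, each pair being counted from both of its probe sets. The median size of the difference was 0.09 there, against 0.32 for the separated probe sets. A sign is less certain near 0, so these shares are not like for like and the excess is no support for the peaks and dips. The share among the separated genes was 62.5% without the filter on signal, 60.8% without the second 18-month array and 66.3% without both arrays of high Tg signal. The other probe set was separated the same way in 0 of 45 pairs and the opposite way in 0, and it reached at least 0.5 of the size of the separated one in 21 (46.7%). Its median difference in that direction was 0.10, against 0.32 for the separated probe sets, which were chosen for their extremes.

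Pairs from the same accession, which can share probes, matched in sign in 12 of 15 (80%), and pairs from different accessions in 22 of 30 (73.3%). The corresponding shares over all tested probe sets, whose differences were smaller, were 60.5% and 55.3%. Peaks matched in 14 of 18 and dips in 20 of 27. The plot of other probe sets shows each gene on its own line.

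**Figure D4:**
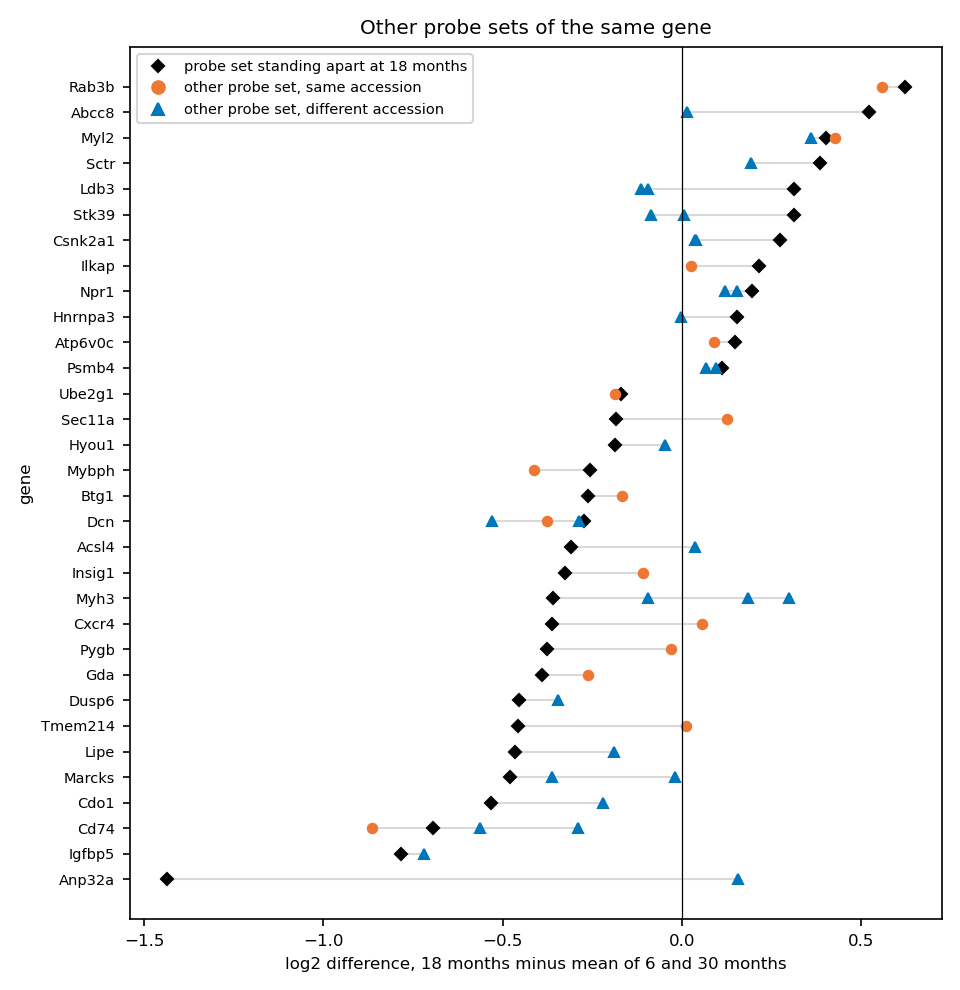
Mid-life log2 difference (horizontal axis) of the probe set that stood apart (diamond) and of the other tested probe sets of the same gene (circle, same accession; triangle, different accession) for 32 genes (vertical axis). For Anp32a the other probe set lies at 0.16, while for Igfbp5, Dcn and Myl2 all symbols lie on one side of 0.

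Genes whose probe sets lay on one side of 0 included a matrix proteoglycan and a slow myosin light chain. Decorin, Dcn, had 4 tested probe sets, at -0.27, -0.38, -0.29 and -0.53. The separated one read 10501.2, 10414.2 and 8841.7 in the 6-month pools, 7666.4, 8207.3 and 7882 in the 18-month pools and 8704.2, 9506.2 and 9586.2 in the 30-month pools. The last of the 4, from another accession, was -0.90 from 6 months but -0.16 from 30 months. Myl2, the slow and cardiac regulatory light chain, read 6660.1, 8491.4 and 6481.3 in the 6-month pools, 10829.3, 10068.3 and 11671.9 in the 18-month pools and 9155, 10034.7 and 8950.6 in the 30-month pools. All mid-life pools were above the others, narrowly so against 1 old pool, by 0.40 (SE 0.12). Its 2 other probe sets gave 0.43 and 0.36. Dusp6, the phosphatase of ERK kinases, gave -0.45 and -0.34, and Gda, guanine deaminase, -0.39 and -0.26.

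Cd74, the invariant chain of class II antigen presentation, was lower in all 4 of its probe sets. The separated one read 60.7, 60.9 and 43.7 in the 6-month pools, 38.7, 37.1 and 42.6 in the 18-month pools and 108, 139 and 120.3 in the 30-month pools. Mid-life pools lay just under the lowest 6-month pool, and all 30-month pools were far higher. It was the only probe set called in 18 against 30 months, at -1.11 (limma adjusted p = 0.0361), and was -0.28 from 6 months (limma adjusted p = 0.579). It was also called in 30 against 6 months, at 0.83 (limma adjusted p = 0.0319). Its signals at 6 and 18 months lay under the level required for testing, which it passed through the 30-month arrays, where it was high. The other 3 had mid-life differences of -0.86, -0.56 and -0.29.

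Elsewhere probe sets of a gene disagreed. For Myh3, the embryonic myosin heavy chain, the separated probe set read 158.2, 156.6 and 145.7 in the 6-month pools, 86.5, 113.7 and 116.2 in the 18-month pools and 123, 144.4 and 134.6 in the 30-month pools, a difference of -0.36. The strongest Myh3 probe set, from another accession, read 1609.7, 1724.8 and 1884.7 in the 6-month pools, 2133, 1811.6 and 1967.9 in the 18-month pools and 1995.5, 1552.7 and 1628.5 in the 30-month pools, a difference of 0.19, and the remaining ones gave -0.10 and 0.30. Ldb3, a Z-disc protein, was a peak at 0.31 while its others gave -0.11 and -0.09. Cxcr4, the chemokine receptor, gave -0.36 and 0.06 and the signal peptidase subunit Sec11a -0.18 and 0.13, each from a single accession. Acsl4, a long-chain acyl-CoA synthetase, gave -0.31 and 0.04.

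Gene groups were described with 27 lists, using for each gene the probe set with the highest mean. Over all 3163 tested genes 1596 were higher and 1567 lower at 18 months, with a median of 0.00. No gene of the 27 lists passed limma's test of the mid-life contrast, which follows from the 0 calls among all 5244 tested probe sets. In 20 lists the median lay between -0.04 and 0.09, and in the other 7 it lay beyond 0.1 either way. RNA was taken from whole muscle, so fewer cells of a type and less RNA per cell cannot be told apart. Differences from 6 and from 30 months share the 18-month arrays and are given side by side.

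**Figure D5:**
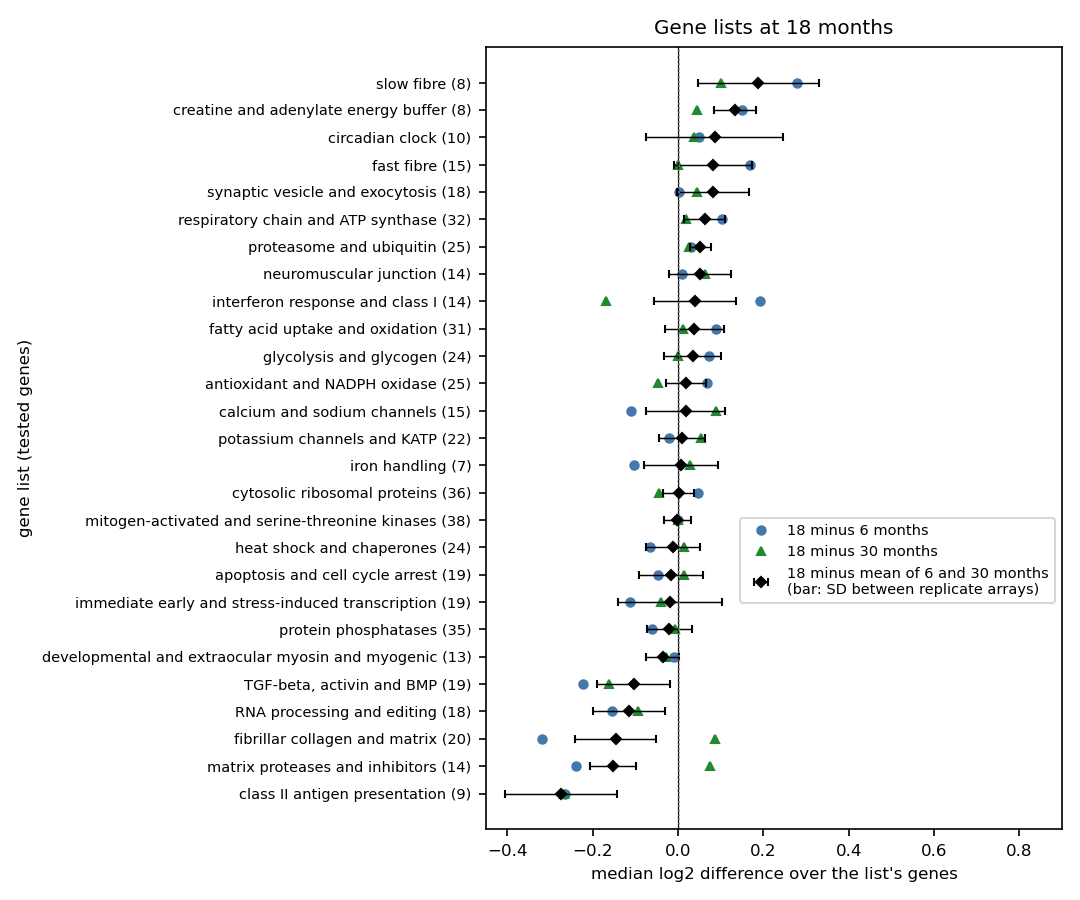
Median log2 difference (horizontal axis) over the tested genes of 27 gene lists (vertical axis, number of genes in parentheses): 18 minus 6 months (blue), 18 minus 30 months (green) and 18 months minus the mean of both (black, bar: pooled SD of the list's median between arrays of one age). Class II antigen presentation lies lowest at -0.27 and slow fibre genes highest at 0.19.

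Class II antigen presentation had the lowest median, -0.27, with 7 of 9 genes lower, and the difference was -0.27 from each of the other ages. RT1-Da, a class II alpha chain, read 1478.2, 1283.7 and 980 in the 6-month pools, 1064.6, 690.8 and 566.1 in the 18-month pools and 1310.7, 961.6 and 1099.4 in the 30-month pools, a difference of -0.63 (SE 0.20). Its mid-life pools ran lower but overlapped the other ages. RT1-Bb gave -0.32 and RT1-Ba -0.27, while RT1-DMb, which loads peptide, gave 0.09. The summed signal of the macrophage markers was 538.2 to 880.4 at 6 months, 540.8 to 732.3 at 18 months and 809.5 to 1097.1 at 30 months, and only Lyz2 of the 4 on the array was tested. The lymphocyte markers summed to 320.6 to 413.4, 386.8 to 454.4 and 380 to 401.6, and 2 of their 3 tested genes were higher at 18 months. The part of these cells in the result was not tested.

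RNA processing and editing genes had a median of -0.12, with 15 of 18 lower. Of the list's 32 tested probe sets 2 were dips, of Adar and Anp32a, against 0.934% of all tested probe sets. The list was chosen with earlier results of these data known, so that it holds these dips is a description only. The other tested Anp32a probe set did not dip. Khdrbs1, a splicing regulator, gave -0.28 and Celf1, which acts on splicing and mRNA decay, -0.32. Celf1 read 1494.3, 1647.3 and 1765.3 in the 6-month pools, 1657.4, 1147.7 and 1148.6 in the 18-month pools and 1665.9, 1531.6 and 1679.7 in the 30-month pools, so 1 mid-life pool was as high as the others. Sfpq was higher, by 0.31. Adarb1, another editing deaminase, gave -0.43 with an SE of 0.35.

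In the TGF-beta, activin and BMP group 15 of 19 genes were lower and the median was -0.10, at -0.22 from 6 months and -0.16 from 30 months. Inhba, the activin A subunit, read 270.2, 262.1 and 288 in the 6-month pools, 86.2, 164.1 and 138.1 in the 18-month pools and 233.4, 116.7 and 208.9 in the 30-month pools, with 1 old pool among the mid-life ones. Bmpr1a, a BMP receptor, read 100.6, 95.9 and 134 in the 6-month pools, 40.8, 97.3 and 36.2 in the 18-month pools and 107.2, 101.7 and 90.2 in the 30-month pools, and 2 mid-life pools were far below all others. Those 2 signals lay under the level required for testing, which Bmpr1a passed through the other arrays. The mid-life differences of Inhba and Bmpr1a were -0.69 (SE 0.21) and -0.66 (SE 0.20). Fst, which sequesters activin, gave -0.44, and Mstn, myostatin, -0.07.

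Collagen and matrix genes were lower against the mean of the other ages but not against each of them. Their median was -0.15, with 17 of 20 lower, and it was -0.32 from 6 months and 0.09 from 30 months. Col1a1, the other chain of type I collagen, was -1.07 from 6 months and 0.19 from 30 months, and Col3a1 -1.20 and 0.22. Dcn, at -0.32 and -0.23, was the only dip among the list's 37 tested probe sets, against 0.934% of all tested probe sets. Matrix proteases and their inhibitors had a median of -0.15, with -0.24 from 6 months and 0.08 from 30 months. Leaving out the second 18-month array brought the protease median to -0.06, and leaving out the first to -0.08. The fibroblast markers summed to 27139.7 to 31991.5 at 6 months, 18228.5 to 20343 at 18 months and 20448.6 to 21212.8 at 30 months. Their part in the matrix values was not tested.

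Slow fibre genes had the highest median, 0.19, with 6 of 8 higher, at 0.28 from 6 months and 0.10 from 30 months. Without the second 18-month array it was 0.38. Myh7, the slow myosin heavy chain, read 3044.2, 2588.1 and 2357.1 in the 6-month pools, 4698.9, 3416.9 and 5207.2 in the 18-month pools and 3873.9, 3967.4 and 4248.9 in the 30-month pools. Among the mid-life pools the second was the lowest and lay below all 30-month pools, and the difference was 0.42 (SE 0.14). It was 0.72 from 6 months but 0.12 from 30 months. This probe set is of a class that can match several members of a gene family. The other tested Myh7 probe set was 0.98 from 6 months and -0.003 from 30 months. The slow fibre markers summed to 22589 to 29483.6 at 6 months, 32811 to 41820.4 at 18 months and 31548 to 34600.8 at 30 months. All 4 tested ones were higher at 18 months, with a median of 0.34.

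Fast fibre genes were higher in 14 of 15, by a median of 0.08, which was 0.17 from 6 months and 0.00 from 30 months. Myh2, the IIA myosin heavy chain, gave 0.32 (SE 0.09) and Myh4 0.08. Creatine and adenylate buffer genes were higher in 6 of 8, with a median of 0.13, and respiratory chain genes in 25 of 32, with a median of 0.06. After quantile normalization these 3 medians were 0.01, 0.04 and 0.01. The proteasome list, with 18 of 25 higher and a median of 0.05, held 2 peaks among 46 tested probe sets, against 0.61% of all tested probe sets. They were the ATPase subunit Psmc1 at 0.10 (SE 0.08) and the core subunit Psmb4 at 0.11 (SE 0.09). The other tested Psmb4 probe sets gave 0.07 and 0.10 and did not stand apart. Both peaks were narrow: Psmc1 read 1598.5, 1620.8 and 1657.6 in the 6-month pools, 1760.4, 1695.4 and 1697.5 in the 18-month pools and 1556.3, 1610.5 and 1592.9 in the 30-month pools.

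The synaptic vesicle list, which held the Rab3b peak, was higher in 13 of its 18 genes, by a median of 0.08, but -0.03 without the first 18-month array. Neuromuscular junction genes were higher in 12 of 14, with a median of 0.05. None of their 22 tested probe sets stood apart, against 1.54% of all tested probe sets, so the list is too small for this count to be read. Kcnh2, a voltage-gated potassium channel, was a dip at -0.27 (SE 0.11) in a channel list whose median was 0.01. Lipe, the hormone-sensitive lipase, gave -0.47 and -0.19 in its 2 probe sets. The first was the only one of 6 tested adipocyte marker probe sets that stood apart, against 1.54% of all tested probe sets. The adipocyte markers summed to 4165.9 to 4984.6 at 6 months, 4169.1 to 4441 at 18 months and 4260 to 5279 at 30 months.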

How the data were processed

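Per the series' design text, RNA of 4 animals was pooled per sample, biotin-labelled cRNA was hybridized and the arrays were analysed with Microarray Suite 5.0. The deposited values are probe set signals, an intensity on a linear scale with a lowest value of 0.1 and 0 missing. The authors' detection and difference calls and their fold threshold were not used here, and no genome build was needed. The labels name 2 dyes, but the protocol describes a single biotin stain, so each array was read as 1 channel.

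Of 8799 probe sets 59 controls were left out. Signals were analysed as log2(signal + 32), and the upper 60% by mean over all arrays (at least 6.60, 5244 of 8740) were tested. Each age had its own mean in a model fitted with limma 3.58.1 in R 4.3.3, without a replicate block, and checked on simulated data. The platform annotation gave 1 symbol for 7006 probe sets, several for 308 and none for 1426; 6985 gene IDs matched GRCr8 and 0 symbols changed.

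Named genes were the 12 per direction with the widest gap among tested single-symbol probe sets that stood apart, up to 3 such genes per list, and all their other tested probe sets. Where a list was described, further genes of it were named after their values were seen. Members, lists and tests were chosen with earlier results of these data known. Alternatives covered the pseudocount, the filter, quantile normalization, a replicate block, array weights, a fit with 2 groups, and leaving out each array.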

Additional observations from a re-analysis of the deposited data

How the results depend on the processing

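The mid-life contrast gave 0 limma calls under every alternative but 3 of the fits that leave out 1 array, where it ranged from 0 to 2, and the count called against both ages ranged from 0 to 1 (Anp32a without the first 18-month array, Trpc1 without the second, Adar without the third 30-month array). The smallest limma adjusted p ran from 0.00167 without the first 18-month array to 0.605 with the replicate block. Without both arrays of high Tg signal, added after seeing the data, there were 270 peaks and 344 dips, where fewer arrays had to be cleared. Peaks numbered 32 and dips 49 in the upper 60%, 25 and 32 in the upper 40%, 25 and 34 with a ratio of at least 1.5, 5 and 10 with a gap of at least 0.2, and 84 to 380 and 102 to 340 when 1 array was left out, where fewer arrays had to be cleared. As a comparison added after seeing the data, setting 6 months apart gave 353 above and 168 below, and 30 months 63 and 209. After quantile normalization 93 peaks and 67 dips were counted, and 53 of the 81 tested peaks and dips were still separated the same way. Of the separated probe sets, 2 were called in 30 against 6 months, 1 after quantile normalization and 1 with the replicate block. That block gave 0 mid-life calls and 235 at an unadjusted p under 0.05; same-numbered arrays correlated at -0.02 to 0.26, over 0.1 in 4 of 9 pairs, so the numbers were not taken as pairing. No named probe set changed direction in 594 comparisons. That follows largely from the rule that chose them, since all 3 of their 18-month signals clear all 6 others, and says little of their stability. Of 460 list medians 40 took the opposite sign. Adar and other weak probe sets are limited by signal close to that of the weakest probe sets of the array.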
